A study of Mus musculus with 4 samples.

Results

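The glutathione S-transferases (Gst), the UDP-glucuronosyltransferases (Ugt) and the cytosolic sulfotransferases (Sult) make up most of the second phase of drug and hormone metabolism. They were taken here as every non-control probe whose gene name in the array files begins with Gst, Ugt1, Ugt2, Ugt3 or Sult. This gave 44 genes of the 27962 named on the array, on 58 of 41174 gene probes, of which 20 genes were Gst, 13 were Ugt and 11 were Sult. By RefSeq accession, 55 of the 58 probes carried the same symbol as in the current annotation, and the other 3, both probes of Gstm7 and the Gstcd probe used here, matched none. 13 of the genes had more than 1 probe, and the probe with the highest mean level stands for the gene below.

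The tested mice ate a purified diet with 1.2% of a nucleoprotein product, which held 0.5% nucleic acids, and the control mice ate the purified diet alone, which held 0.03%. All mice were male C57BL/6J, 7 weeks old, ate their diet for 4 weeks, and then received a single injection of lipopolysaccharide (LPS), an outer membrane component of bacteria that provokes inflammation throughout the body, at 10 mg/kg. Liver and spleen were taken 6 h later, so every value is from an injected mouse and uninjected mice were not analysed here. The housing notes name a standard chow where the design names the purified diet, and the design was followed.

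RNA was pooled by diet within each organ, and the sources used here give no number of mice per pool. Both pools of an organ were hybridised together on 2 arrays of opposite dye orientation, with the nucleoprotein pool in Cy5 on replicate 1 and in Cy3 on replicate 2. The 4 arrays shared 1 slide. The labels do not say whether the samples numbered 1 and 2 were the same pools, and they were read as 1 pool per diet and organ. The spread between the 2 arrays is then technical, no test between diets or organs was made, and each SD is of readings and not of mice. Between 55.2% and 72.8% of gene spots in a channel were well above background, and no gene spot was saturated.

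These enzymes attach a polar group to a lipophilic molecule, which makes it soluble enough to leave in bile or urine. Glutathione transferases add the tripeptide glutathione to electrophiles, glucuronosyltransferases add glucuronic acid from its UDP-bound form, and sulfotransferases add sulfate from the donor PAPS. Hepatocytes are the main site of all these reactions, and inflammation is known to lower many drug-metabolising enzymes in liver. The mouse Ugt1a enzymes are spliced from alternative first exons onto shared later exons, and several Gsta and Ugt2b genes are close copies of each other, so short probes can read more than 1 of them.

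That limit applied to 6 of the 58 probes, which RefSeq accessions in the files list for more than 1 gene. The probes of Gsta1 and Gsta2, which are 60 bases long, are shown because each is listed for both genes. Capitals mark the stretch of 28 bases that they share.
Gsta1: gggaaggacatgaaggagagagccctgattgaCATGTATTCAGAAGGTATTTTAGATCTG
Gsta2: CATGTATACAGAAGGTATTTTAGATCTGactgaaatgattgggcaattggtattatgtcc
Within this stretch 27 bases were identical, and the remaining difference was T40A, counted from 1 at the 5′ end of the Gsta1 probe, with the Gsta1 base first. The Gsta2 probe lay at chr9:78408171-78408230 on the minus strand of mm7, the build named in the files, which give no position for the Gsta1 probe.

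The Ugt2b37 and Ugt2b38 probes are shown because they gave the largest measured differences between organs, with spleen readings partly at background. The first is listed for Ugt2b36 and Ugt2b37, and the second for Ugt2b37, Ugt2b38 and Ugt2b5.
Ugt2b37: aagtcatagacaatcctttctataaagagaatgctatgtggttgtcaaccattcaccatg
Ugt2b38: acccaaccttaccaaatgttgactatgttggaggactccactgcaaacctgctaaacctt
In mm7 the first spans chr5:87177762-87179054 and the second lies at chr5:87358365-87358424, both on the minus strand. The first covers 1293 bases of genome for 60 bases of probe. The probe standing for Gstp1 is also listed for Gstp2, and that for Ugt1a6b for Ugt1a1, Ugt1a10 and Ugt1a5. Values under these 6 names may therefore include close copies.

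Liver and spleen were compared first, from log2 levels of the single channels after scaling between arrays. Each gene gave 4 liver minus spleen differences, matched on dye and on diet. A gene was called when all 4 passed 2-fold in the same direction, and it could be measured when all 4 readings of at least 1 organ were well above background. Of the 44 genes 41 could be measured, 37 were higher in liver, and 1, Gstcd, was higher in spleen. Over all 18254 measurable genes the same rule called 13.1% higher in liver and 16.9% higher in spleen. The median liver minus spleen difference was 3.93 over the measurable members and -0.13 over all genes.

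The families differed in size of difference. All 12 measurable Ugt genes were higher in liver, with a median difference of 5.77, or 5.76 with each gene that had no spleen reading above background at its bound. Of 20 Gst genes 18 were higher in liver, with a median of 3.36. Of 9 measurable Sult genes 7 were higher in liver, with a median of 2.31. At least 8-fold in all 4 differences were 10 Gst, 10 Ugt and 3 Sult genes, 23 in all, where all genes gave 4.2%. Of all 44 genes, 26 had all 4 spleen readings above background, 9 had some and 9 had none, of which 6 were Ugt genes and the others were Sult1b1, Sult2a2 and Sult3a1.

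**Figure D1:**
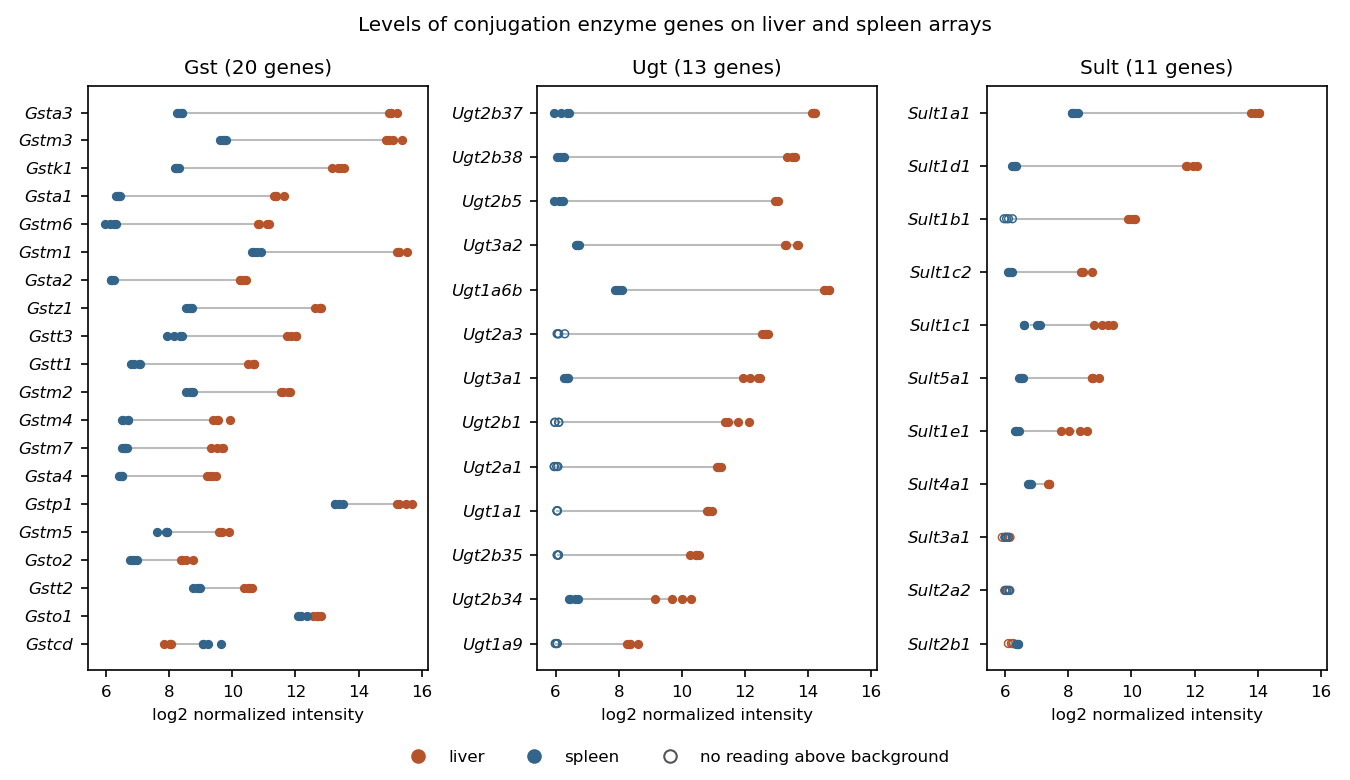
Log2 normalized intensity (x axis) of each Gst, Ugt and Sult gene (rows) in its 4 liver and 4 spleen readings, 1 point per reading, with a line joining the organ means. Open points mark a gene with no reading of that organ above background; every measured Ugt gene lies at or above 8.27 in liver, and Gstcd has its spleen points to the right of its liver points.

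In the levels below, the 4 readings of an organ are given for the nucleoprotein pool on replicates 1 and 2 and then for the control pool on replicates 1 and 2, as log2 intensity. Levels of different genes come from different probes and were not set against each other.

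Among the glucuronosyltransferases, Ugt2b37 read 14.22, 14.17, 14.12 and 14.18 in liver, against 6.43, 6.35, 6.18 and 5.96 in spleen. The organs were far apart, and in spleen only the nucleoprotein readings were above background. The difference was 7.94 ± 0.20 (SD of 4 matched differences), a size that rests partly on spleen readings at background. The other Ugt2b37 probe, with all 4 spleen readings above background, gave 6.71 ± 0.21. Ugt2b38 read 13.57, 13.50, 13.56 and 13.33 in liver, against 6.23, 6.27, 6.13 and 6.03 in spleen, a difference of 7.32 ± 0.08. Again the spleen readings were above background only in the nucleoprotein pool, so this size has the same limit. Ugt2b5 had the same spleen pattern, at 6.19, 6.23, 6.12 and 5.96. Its liver spot on replicate 1 was excluded as an outlier, so it had only 13.05 in the nucleoprotein pool and 12.94 in the control pool on replicate 2, and it did not count as measurable between organs. The enzymes of the Ugt2b group glucuronidate steroids, bile acids and many drugs.

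The Ugt3a enzymes use other UDP-sugars in place of UDP-glucuronic acid. Ugt3a2 read 13.69, 13.30, 13.28 and 13.64 in liver, against 6.73, 6.69, 6.71 and 6.66 in spleen. All 8 readings were above background and the liver and spleen readings did not overlap, with a difference of 6.78 ± 0.22, or 110-fold. Ugt3a1 differed by 5.90 ± 0.28. Ugt1a6b, a phenol-conjugating enzyme whose probe is shared with other Ugt1a genes, read 14.53, 14.67, 14.50 and 14.68 in liver, against 8.09, 7.96, 8.00 and 7.88 in spleen. Its difference was 6.61 ± 0.17, or 97.8-fold.

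Several glucuronosyltransferases had liver readings and no spleen reading above background, which gives a lower bound. This was taken against the lowest signal well above background on each spleen array, or the gene's own signal where that was higher. Ugt2a3 read 12.74, 12.67, 12.65 and 12.53 in liver, and none of its spleen readings, at 6.10, 6.29, 6.07 and 6.04, was above background. It was at least 90.9-fold higher in liver, Ugt2b1 at least 49.1-fold and Ugt2a1, a gene known from olfactory epithelium, at least 34.5-fold. Ugt1a1, the bilirubin-conjugating enzyme, was at least 27.4-fold higher and Ugt2b35 at least 20.1-fold. At the low end, Ugt1a9 read 8.62, 8.36, 8.27 and 8.37 in liver, against 6.00, 6.04, 5.98 and 6.05 in spleen, and was at least 5.03-fold higher. Ugt2b34 read 9.68, 10.00, 9.15 and 10.29 in liver, against 6.46, 6.62, 6.44 and 6.72 in spleen. Its liver readings were spread over more than 1 log2 unit but stayed above all spleen readings, with a difference of 3.22 ± 0.36.

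Among the glutathione transferases, the alpha-class Gsta3 read 15.21, 14.98, 15.03 and 15.03 in liver, against 8.40, 8.42, 8.31 and 8.24 in spleen. The 4 readings within each organ were close, and the difference was 6.72 ± 0.11, or 105-fold. Gstm3, of the mu class, read 15.10, 14.86, 14.97 and 15.38 in liver, against 9.73, 9.61, 9.71 and 9.79 in spleen, 41.3-fold higher in liver. Gstk1, the kappa-class enzyme of mitochondria and peroxisomes, read 13.15, 13.54, 13.43 and 13.34 in liver, against 8.24, 8.19, 8.30 and 8.23 in spleen, 34.9-fold higher. Gsta1 read 11.32, 11.65, 11.39 and 11.37 in liver, against 6.37, 6.45, 6.30 and 6.38 in spleen, where 3 of 4 readings were above background. Its difference was 5.06 ± 0.11. The mu-class genes Gstm1 to Gstm7 were all higher in liver, with differences between 1.84 and 5.37 and a median of 3.02. All 3 theta-class genes were also higher, at 3.69 for Gstt3, 3.69 for Gstt1 and 1.61 for Gstt2. Gstz1, the zeta-class enzyme of tyrosine breakdown, differed by 4.10 ± 0.17.

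The exceptions in the Gst family were few. Gstt2 had the smallest difference of those called higher in liver, at 10.36, 10.49, 10.61 and 10.55 in liver, against 8.76, 8.90, 8.95 and 8.97 in spleen. Gsto1, the omega-class enzyme that reduces dehydroascorbate, was high in both organs and was not called. It read 12.69, 12.72, 12.83 and 12.55 in liver, against 12.09, 12.37, 12.19 and 12.15 in spleen, a difference of 0.49 ± 0.14. Gstcd, named for a transferase-like C-terminal domain, was the only member called higher in spleen. It read 8.02, 8.05, 8.01 and 7.83 in liver, against 9.64, 9.23, 9.08 and 9.09 in spleen, with all spleen readings above all liver readings. The difference of -1.28 ± 0.24 corresponds to 2.43-fold higher in spleen. The probe behind these values matched no RefSeq accession, while the second Gstcd probe, which did match, gave -0.56 and was not called, and with the mean of both probes Gstcd was no longer called.

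Among the sulfotransferases, Sult1a1, which acts on simple phenols, read 14.04, 13.78, 14.04 and 13.92 in liver, against 8.11, 8.29, 8.12 and 8.22 in spleen, 54.2-fold higher. Sult1d1, which acts on catecholamines and related compounds in mice, read 11.73, 11.77, 12.09 and 11.96 in liver, against 6.22, 6.34, 6.29 and 6.30 in spleen, with 3 of 4 spleen readings above background. Its difference was 5.60 ± 0.16. Sult1b1, a thyroid hormone sulfotransferase, was higher in liver by at least 3.91 log2 units. Sult1c2 read 8.46, 8.40, 8.73 and 8.45 in liver, against 6.13, 6.19, 6.22 and 6.07 in spleen, where 1 reading was above background. Sult1c1 and Sult5a1 differed by 2.31 and 2.30.

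Lower in this order came Sult1e1, the estrogen sulfotransferase, which is known to be low in the livers of healthy male mice. It read 7.75, 8.02, 8.38 and 8.58 in liver, against 6.44, 6.32, 6.34 and 6.35 in spleen. All liver readings exceeded all spleen readings, and within liver both nucleoprotein readings were below both control readings. The organ difference was 1.82 ± 0.40. Sult4a1, known mainly from brain, read 7.35, 7.39, 7.40 and 7.39 in liver, against 6.81, 6.80, 6.77 and 6.73 in spleen, a difference of 0.61 ± 0.05 that stayed under 2-fold. Sult2b1, a cholesterol sulfotransferase known from skin, had all 4 spleen readings above background and no liver reading. It read 6.26, 6.10, 6.24 and 6.19 in liver, against 6.40, 6.35, 6.42 and 6.38 in spleen, and was not called. Its difference was -0.19, with a bound of 1.13-fold towards spleen, and lay close to the median of -0.13 over all genes. Sult2a2 and Sult3a1, whose relatives in mice are known as female-predominant liver enzymes, had no reading above background in either organ of these males.

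Markers of the organs were read on the same arrays. Of 25 hepatocyte markers 23 were higher in liver, with a median difference of 7.35, and of 11 B cell markers 10 were higher in spleen, with a median of -4.82. The members' differences were measured in bulk RNA, in which fewer cells of a type and less RNA per cell cannot be told apart.

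In 7 genes the measurable probes gave organ differences over 1 log2 unit apart. Where a probe had no spleen reading above background its difference is set by its liver signal, which holds for both probes of Sult1b1 and Ugt2a1 and for 1 probe each of Ugt1a6b and Ugt3a2. For Ugt1a6b, the probe listed for 4 Ugt1a genes gave 6.61 ± 0.17, and the probe listed for Ugt1a6b alone gave 2.09 ± 0.08 with no spleen reading above background. For Ugt3a2 the probes gave 6.78 and 3.04, for Sult1b1 3.93 and 1.66, and for Ugt2a1 5.17 and 3.76. The remaining Ugt2a1 probe could not be measured. For Ugt2b37 they gave 7.94 and 6.71. Gstp1 and Gstm1 went the other way, with 2.08 for the Gstp1 probe used here, also listed for Gstp2, and 3.78 for the other, and with 4.57 and 5.63 for Gstm1. All probes of these 7 genes that could be measured gave higher levels in liver.

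**Figure D2:**
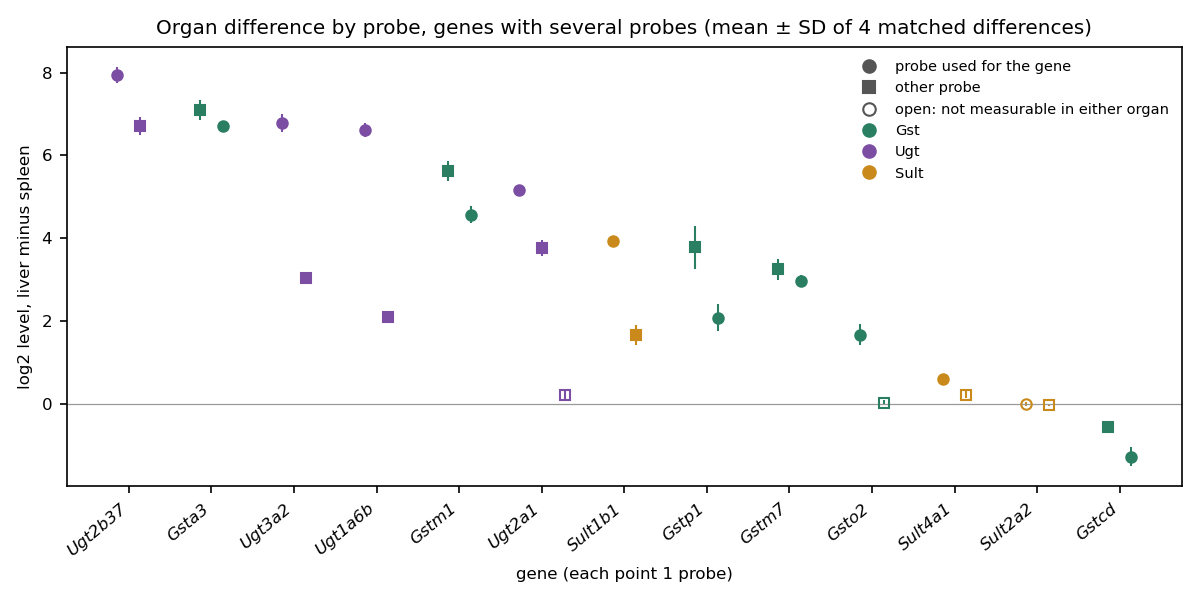
Liver minus spleen difference in log2 level (y axis) for each probe of the 13 genes with more than 1 probe (x axis), as the mean of 4 matched differences with their SD. Circles are the probes that stand for the gene, squares the other probes, and open symbols are probes that could not be measured; the Ugt1a6b probes lie at 6.61 and 2.09, and both Gstcd probes lie below 0.

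The diets were then compared within each organ, from the log2 ratio of nucleoprotein over control after loess normalization within each array. A gene could be measured when at least 1 diet read well above background on both arrays. It was called when both arrays passed 1.5-fold, or 0.58 log2 units, in 1 direction. In liver 40 members could be measured and 0 were called in either direction. The same rule called 0.0121% of all 16523 measurable genes higher and 0.309% lower. In spleen 32 members could be measured and 0 were called, where all 18290 genes gave 0.208% higher and 0.23% lower. A count of 0 among so few members lies near these backgrounds. Over all genes the liver split was 2 higher and 51 lower here and 28 and 106 by the deposited log ratios, and the spleen split was 38 and 42 here and 29 and 10 with median centring.

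In liver the mean ratios of 35 of 40 members lay within 0.2 of 0 on the log2 scale. Ratios had opposite signs on the arrays in 24 members, were above 0 on both in 5 and below 0 on both in 11. Over all genes 34.1% had the same sign on both arrays. The median ratio was -0.09 for Gst, with 0.00 on replicate 1 and -0.19 on replicate 2. It was 0.08 for Ugt, with 0.13 and -0.01, and -0.11 for Sult, with -0.14 and -0.10, beside 0.01 over all genes. All 7 mu-class transferases had mean ratios below 0 in liver, from -0.28 to -0.04, though 4 of them had opposite signs on the arrays, and with median centring in place of loess only 1 of the 7 means was below 0. With median centring the Gst and Sult medians were above 0, at 0.25 and 0.08, and the Ugt median was 0.41, where the median over all genes was 0.17.

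Sult1e1 had the largest liver ratio of the members that agreed in sign. It was -0.63 on replicate 1 and -0.56 on replicate 2, a mean of -0.59 ± 0.05 (SD of 2 arrays), or 1.51-fold lower with the nucleoprotein diet. Replicate 2 fell just short of the bound, and no member lay just inside it. With a smaller background offset (10 in place of 50) the ratios were -0.78 and -0.67, and with the deposited log ratios -1.22 and -0.72, so that Sult1e1 was called under both. With median centring the arrays had opposite signs, at 0.20 and -1.23, and it was not called. In that setting the medians over all measurable liver genes were 1.13 on replicate 1 and -0.72 on replicate 2, and Sult1e1 lay below both. The background of lower calls was 0.345% with the offset of 10 and 0.642% with the deposited log ratios. Sult1e1 was also called with a smaller fold bound, where 0.617% of all genes were lower. In spleen its ratios were 0.10 and -0.03.

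The other liver ratios of equal sign were smaller. Sult1d1 was at -0.36 and -0.19, Gstm2 at -0.22 and -0.23, and Gstt3 at -0.28 and -0.15. Gstm4 was at -0.05 and -0.51, so its mean of -0.28 rested on replicate 2, and Sult1c2 at -0.27 and -0.05 rested on replicate 1. Ugt2b1 passed 1.5-fold on a single array, at 0.66 on replicate 1 against -0.39 on replicate 2. The 2 arrays also disagreed for Ugt3a1, at 0.31 and -0.46, and Gstp1, at 0.41 and -0.30. Over all genes, 0.442% passed 1.5-fold in opposite directions in liver, and no member did. Gsta4 has 10 spots of 1 probe on each array, which show the precision of a ratio within an array. Their mean was 0.07 ± 0.11 on liver replicate 1, where 8 were kept, and -0.29 ± 0.11 on liver replicate 2 (SD of spots), so the arrays differed by more than the spots of either.

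**Figure D3:**
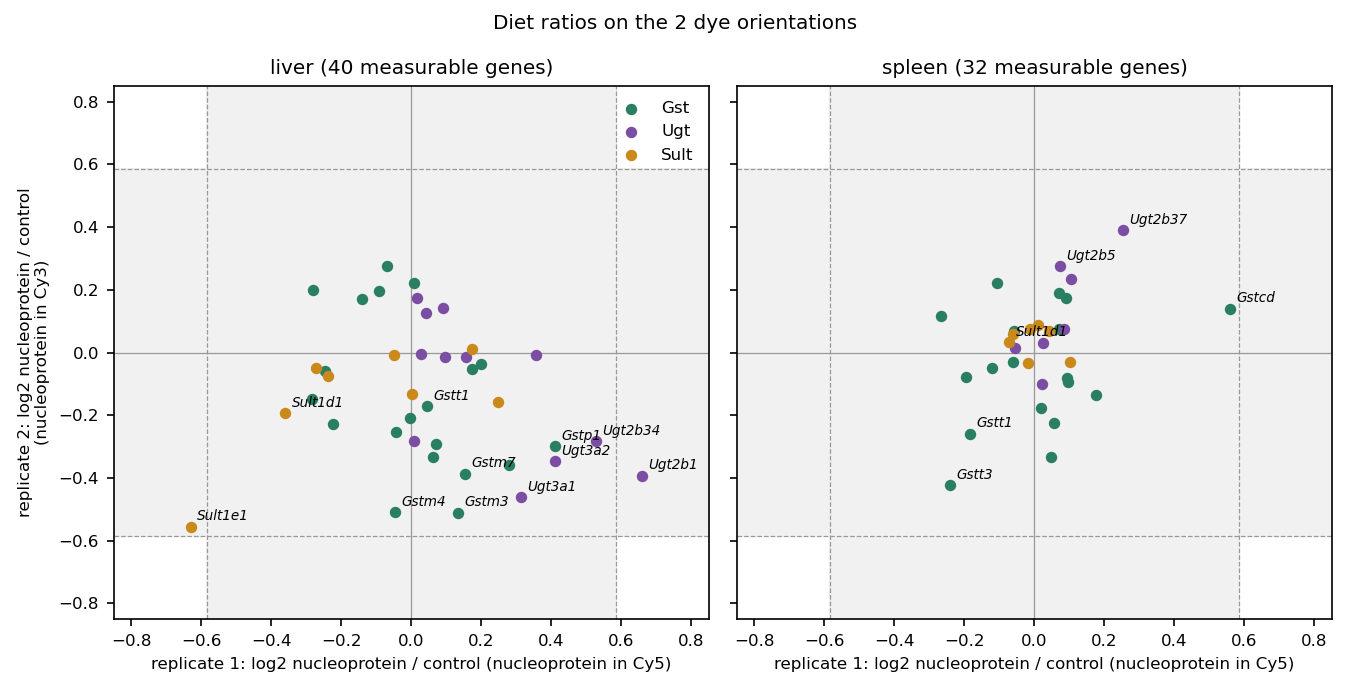
Log2 ratio of nucleoprotein over control on replicate 1 (x axis) against replicate 2 (y axis) for the 40 members measurable in liver and the 32 measurable in spleen, 1 point per gene. Dashed lines mark 1.5-fold, and a gene in a white corner at the upper right or lower left would be called; none is there, and Sult1e1 in liver, at -0.63 and -0.56, is the nearest.

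Pancreatic acinar markers moved with diet on the liver arrays: all 21 measurable ones were lower with the nucleoprotein diet, with a median of -3.84, and their summed log2 level was 13.0 and 12.9 in the nucleoprotein pool and 17.1 and 17.1 in the control pool. Their part in the members' liver ratios was not tested. Hepatocyte markers had a median of 0.36 on liver replicate 1 and -0.48 on replicate 2, and 0 of 24 were called.

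In spleen 28 of 32 members had mean ratios within 0.2 of 0. The medians were -0.02 for Gst, 0.08 for Ugt and 0.03 for Sult, and 0.01 over all members. Among the Ugt genes, Ugt2b37, Ugt2b38, Ugt2b5 and Ugt3a1 were above background on both arrays only in the nucleoprotein pool. The remaining ones were Ugt1a6b at 0.08, Ugt3a2 at 0.03 and Ugt2b34 at -0.04. Ratios were above 0 on both arrays in 11 members, below 0 on both in 6 and of opposite sign in 15, and 40.3% of all genes had the same sign on both. The 11 include Gsta1, Ugt2b37, Ugt2b38 and Ugt2b5, which were above background on both arrays only in the nucleoprotein pool. Gstcd, the member called higher in spleen than in liver, had the largest mean ratio of equal sign, at 0.56 and 0.14, or 0.35 ± 0.30, and its second probe gave 0.21 and 0.08. The theta-class genes Gstt3 and Gstt1 lay below 0 on both arrays, at -0.24 and -0.42 for Gstt3 and at -0.18 and -0.26 for Gstt1. Gstt2 was also below 0 on both, at -0.20 and -0.08. The 3 theta-class means stayed below 0 under the 4 other normalizations and starting values tried, with a median between -0.37 and -0.21. With median centring only 1 of the 3 was below 0 on both arrays, and Gstt3 was at 0.30 and -0.95. In that setting the medians over all measurable spleen genes were 0.53 on replicate 1 and -0.54 on replicate 2, and Gstt3 lay below both.

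The spleen ratios of 3 Ugt2b genes were limited by background. Ugt2b37 was at 0.25 and 0.39, a mean of 0.32 ± 0.10. Ugt2b5 was at 0.07 and 0.27, and Ugt2b38 at 0.11 and 0.23. In all 3 the nucleoprotein pool was above background on both spleen arrays and the control pool on none, so they could be measured only through the pool in which they read higher and show no direction. These 3 probes include 2 listed for overlapping sets of Ugt2b genes and so are not independent readings. The second Ugt2b37 probe, with all 4 spleen readings above background, gave 0.18 and 0.05, and Ugt2b34, also above background in both pools, gave 0.02 and -0.10. With an offset of 10 the Ugt2b37 ratios were 0.61 and 0.95, and with the deposited log ratios 1.32 and 3.69, so that it was called under both, where the background of higher calls was 0.355% and 0.558%. With median centring the Ugt2b37 ratios had opposite signs, at -0.15 and 0.98, where the medians over all measurable genes were 0.53 and -0.54. With the deposited log ratios Ugt2b38 was at 0.27 and 3.13 and Ugt2b5 at 0.24 and 2.13.

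In all, 6 members were measurable in spleen through the nucleoprotein pool alone, namely Gsta1, Sult1d1, Ugt2b37, Ugt2b38, Ugt2b5 and Ugt3a1, and none through the control pool alone. A gene that enters through 1 diet is more likely to read higher there, so these 6 do not support a direction. Of the members measurable in spleen, 16 were at least 8-fold higher in liver, counting Ugt2b5, which had organ differences on replicate 2 only. Their median spleen ratio was 0.03, and it was -0.01 among the 10 of them above background in control spleen on both arrays. The other 16 members had a median of 0.00.

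Hepatocyte markers moved with diet in spleen. Of 23 measurable markers 10 were called higher with the nucleoprotein diet, 22 had a mean above 0, and the median was 0.57, in a range of -0.21 to 2.21. Their summed log2 level was 13.2 and 13.1 in the nucleoprotein pool and 12.2 and 12.2 in the control pool, and 23 were above background on both arrays with the nucleoprotein diet and 17 with the control diet. Alb, which encodes albumin, had a spleen ratio of 1.94 ± 0.24. Among the 17 markers above background in control spleen 9 were called higher. The part of this shift in the members' spleen ratios was not tested. Of the 10 members at least 8-fold higher in liver and above background in control spleen on both arrays, 5 had a mean above 0. Their spleen ratios ranged from -0.33 to 0.13. Among these 10, Gsta3, Ugt1a6b and Sult1a1 were at 0.13 ± 0.06, 0.08 ± 0.01 and 0.03 ± 0.06. Gstt3 and Gstt1 were at -0.33 ± 0.13 and -0.22 ± 0.05. Acinar markers were lower in spleen as well, 17 of 21 called, with a median of -1.08.

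**Figure D4:**
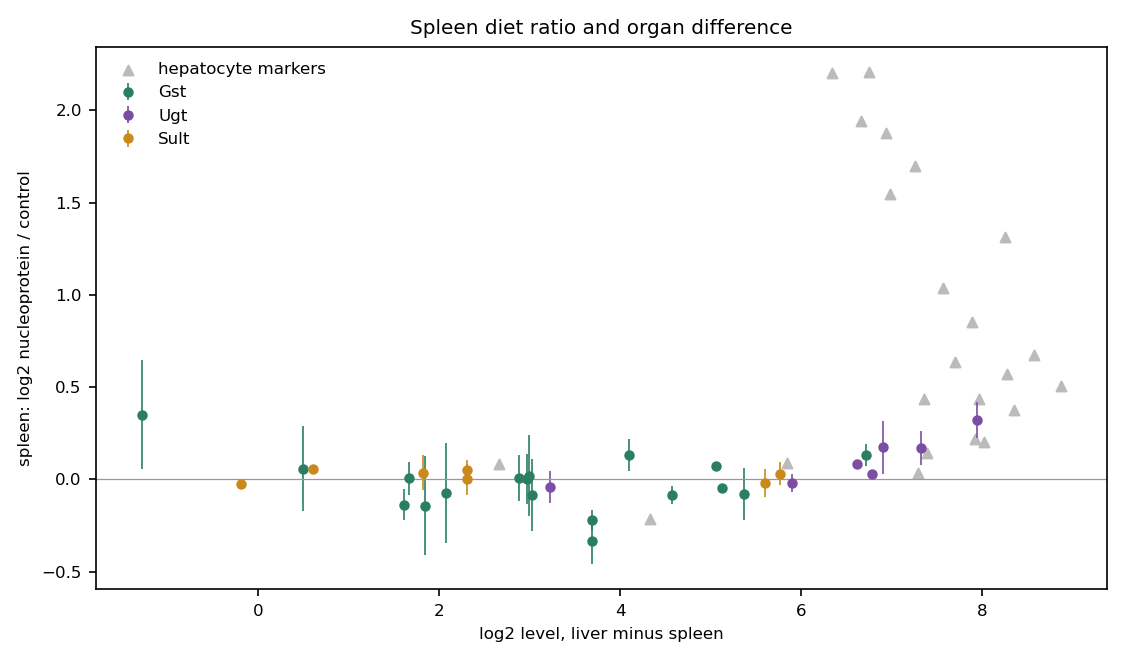
Spleen log2 ratio of nucleoprotein over control (y axis, mean of 2 arrays with SD for members) against the liver minus spleen log2 difference (x axis) for the 32 members measurable in spleen, with hepatocyte markers as grey triangles. Members lie between -0.33 and 0.35 across the whole range of organ differences, while 10 hepatocyte markers are called higher; the point for Ugt2b5 uses replicate 2 only on the x axis.

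The rest of the conjugation pathway was read from 8 lists of 104 genes. Of 100 that could be compared between organs 47 were higher in liver and 11 in spleen, beside 13.1% and 16.9% of all measurable genes. Small counts in a single list can lie near these shares. All 10 measurable genes for other conjugations were higher in liver, such as Inmt at 7.90, Baat at 7.61, which joins bile acids to amino acids, and Gnmt at 7.19. The list of UDP-glucuronate supply and deconjugation had 7 of 8 higher in liver, among them the UDP-glucuronate transporter Slc35d1 at 3.13. The list of sulfate donor supply and sulfatases had 7 of 15 higher in liver and 1 higher in spleen. Glutathione synthesis and recycling had 4 of 16 higher in liver, with Ggt6 at 6.84, and 3 higher in spleen. Of the membrane-bound transferases, Mgst1 at 4.74 and Mgst3 at 2.38 were higher in liver, and Mgst2 at -3.33 and the prostaglandin synthase Ptges at -2.06 were lower. The prostaglandin D synthase Hpgds, listed with them, was also lower, at -1.97. Of 9 efflux pumps 4 were higher in liver, such as Abcc2 at 4.95 and Abcc3 at 3.48, and 3 in spleen, such as Abcc1 at -2.58. Among 20 regulators 9 were higher in liver, such as Hnf4a at 6.65 and Nr1h4 at 4.88, and 0 were higher in spleen.

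By diet, 0 of 96 of these genes were called higher in liver and 1 lower, and 0 of 92 were called in spleen. Over all genes 0.0121% were called higher and 0.309% lower in liver, and 0.208% and 0.23% in spleen. Counts of 0 and 1 among so few genes lie near these backgrounds. The 1 called lower was G6pdx, which supplies NADPH to glutathione reductase. It read 9.54 and 9.31 in the nucleoprotein pool and 10.36 and 10.48 in the control pool of liver, so the pools did not overlap. The liver ratio was -0.99 ± 0.25, with -0.82 and -1.17 on the arrays, and the spleen ratios were -0.08 and 0.07. The other targets of NRF2, the regulator that induces many Gst genes, were not called in either organ.

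Promoter letters were searched for 38 of the 44 genes, which had 49 promoters of 300 bases in RefSeq (GRCm38.p6), from 250 before to 50 after the start, on both strands. The antioxidant response core TGACNNNGC was in 3 member promoters, of Gsta3, Gstm5 and Gstm7, and in 12.4% of all 32851 promoters of that length. The HNF4 letters CAAAGTCCA were in 1, Sult1b1, and in 0.475% of all. TATAAA was in 8 and in 13.6% of all. A match describes these letters only.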

How the data were processed

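The deposited scanner files held, per the file headers, mean and local background intensity for each spot in Cy3 and Cy5, a processed intensity, and the log10 ratio of red over green. The submitters' processing notes name Agilent Feature Extraction 9.5.3.1, and the file headers 9.5.1.1. The authors' series value table, treated as a score because of its signs, held a linear ratio of red over green, with a minus sign on the replicate 1 arrays and medians of -0.92, 0.92, -0.96 and 0.96, as set against the deposited processed intensity. Its scale and direction are thus known, it was not centred further, and the purpose of the sign is not known.

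Intensities were background-corrected with normexp (offset 50) and loess-normalized within each array in limma 3.58.1 on R 4.3.3, with control and outlier spots left out of the fit. Ratios were turned to nucleoprotein over control, and single-channel levels were scaled with Aquantile. The offset makes ratios of dim probes smaller. Spots of a probe were averaged. The steps were tested on simulated data with known changes. No column of another sample was present, and 0 columns were left unused. Gene names are those of the files, and motif searches used RefSeq promoters.

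Named genes were those past a bound and the 6 largest diet ratios of equal sign per organ. The 4 largest and 3 smallest organ differences per family were also named, as were genes whose probes differ by over 1 log2 unit. A few more were chosen after their values were seen (Ugt2a3, Ugt1a1, Gsta4, Gstz1, Ugt3a1, Ugt2b1, the other mu-class genes, Sult1c1 and Sult5a1). The members and the lists were chosen with earlier results of these data known. Alternatives were other normalizations, offsets, fold bounds, filters, probe rules and single arrays.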

Additional observations from a re-analysis of the deposited data

Results flagged for a closer look

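Of 30 members measurable in both organs, 2 had diet ratios of opposite direction in liver and spleen on every array. Gstz1, the zeta-class enzyme of tyrosine breakdown, had a mean log2 ratio of nucleoprotein over control of -0.11 in liver and 0.13 in spleen. Sult4a1 had -0.030 in liver and 0.056 in spleen. The difference between organs was not tested, and all 4 means lay within 0.2 of 0.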

How the results depend on the processing

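No paired analysis was possible because no result comes from a test, and the labels do not say what the replicate numbers shared by liver and spleen stand for beyond dye orientation. With median centring the liver medians were 0.25 for Gst, 0.41 for Ugt and 0.080 for Sult, where the median over all genes moved to 0.17. The count of members lower in liver with the nucleoprotein diet was 1, Sult1e1, with an offset of 10, the deposited log ratios, the authors' table or a smaller fold bound. The count higher in spleen was 1, Ugt2b37, with an offset of 10, the deposited log ratios or the authors' table. These settings called 0.355%, 0.558% and 0.558% of all genes higher. Only the nucleoprotein readings of Ugt2b37 were above background in spleen, so this count shows no direction. Over single arrays, the counts of members higher and lower in liver each ranged from 0 to 1, with Ugt2b1 and Sult1e1 past the bound on replicate 1. Gstcd, the 1 member higher in spleen than in liver, was lost with a 4-fold bound or the mean of all probes, a count of 0. Members higher in liver than in spleen numbered 32 to 39 over all alternatives, with 35 when arrays were not scaled, where the median over all genes was -0.54 beside -0.13 with scaling. The cause of these shifts was not tested. Dim probes limit the spleen values, and the number of pools limits the precision of every ratio.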
